A study of Homo sapiens with 4 samples.

Results

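Gangliosides are sialic acid-bearing glycosphingolipids of the outer plasma membrane, and the disialoganglioside GD2 is a surface antigen of neuroblastoma that therapeutic antibodies bind. The genes described here are the 10 glycosyltransferase genes that carry ceramide to GD2 and on to the complex gangliosides: UGCG, B4GALT5, B4GALT6, ST3GAL5, ST8SIA1, ST8SIA5, B4GALNT1, B3GALT4, ST3GAL1 and ST3GAL2. They were chosen by symbol from pathway knowledge, with earlier results of these data known. Each matched 1 of the 64252 rows of the count table. Their RNA was counted by sequencing in SK-N-BE(2) cells, an established neuroblastoma line that carries extra copies of MYCN. Per the series' design text the cells were transfected with a short hairpin RNA (shRNA) against CDK5RAP3, the group shCDK5RAP3, or with a control hairpin, the group shControl, with 2 libraries in each. The study's title concerns CDK5RAP3 and the autophagy of endoplasmic reticulum in this tumour, and the comparison made here is shCDK5RAP3 over shControl. The number of hairpins against CDK5RAP3, and whether the lines were selected or cloned, are not stated in the labels.

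The pathway is a chain of Golgi enzymes, most of which add a single sugar. UGCG makes glucosylceramide on the cytosolic face, and B4GALT5 or B4GALT6 turns it into lactosylceramide, the common precursor of several glycosphingolipid series. ST3GAL5 adds sialic acid to give GM3, ST8SIA1 adds another to give GD3, and ST8SIA5 can add a further one. B4GALNT1 then adds N-acetylgalactosamine, which turns GM3 into GM2 and GD3 into GD2. B3GALT4 adds galactose to GM2 and GD2, and ST3GAL1 and ST3GAL2 place the terminal sialic acid of the complex gangliosides.

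Total counts were 28653689 and 30138393 in the shCDK5RAP3 libraries and 28721740 and 28755837 in the shControl libraries. CDK5RAP3 itself had 1669 and 1689 counts in shCDK5RAP3 cells, against 2529 and 2866 in shControl cells, so the knockdown was partial (62.1% of control, edgeR adjusted p = 0.000163). Nothing in the labels says that the libraries of a group came from separate cultures, so p-values measure only the spread between these libraries. In bulk RNA, fewer cells that express a gene and less of its RNA per cell cannot be told apart. The labelled cell type was checked against its markers, and all 8 noradrenergic neuroblastoma markers, among them TH, DBH and MYCN, were detected in every library. Their summed level was 4534 and 4678 CPM (counts scaled to library size) in shCDK5RAP3 cells, against 7074 and 7521 CPM in shControl cells, most of it from MYCN. Of these 8 genes, 7 were lower and 0 higher (edgeR; 0 higher also at an unadjusted p under 0.05, with DESeq2 and with limma-trend). Among all genes tested, 21.8% were lower and 19.7% higher (edgeR adjusted p under 0.05). Of 17 markers of fibroblasts, leukocytes, endothelium, epithelium and Schwann cells, CD3E and SOX10 had a count of 0 in every library. Their summed level was 248 and 229 CPM in shCDK5RAP3 cells, against 572 and 545 CPM in shControl cells, carried mainly by LUM, PDGFRB, COL3A1, COL1A1 and DCN. Among the 13 of them that were tested, 8 were lower and 0 higher (edgeR; 0 also unadjusted, with DESeq2 and with limma-trend). These counts stand beside the same shares of all genes tested, 21.8% lower and 19.7% higher. The part of either marker list in the results that follow was not tested.

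The opening enzyme of the chain was higher in shCDK5RAP3 cells and most later ones were lower. UGCG rose 1.46-fold, while B4GALT5 fell to 42.0% of its shControl level and ST3GAL5 to 53.6%. ST8SIA1 and B4GALNT1, the enzymes that between them give GD2 from GM3, fell to 60.0% and 67.4%, and ST3GAL1 and ST3GAL2 to 64.0% and 82.2%. B4GALT6 did not pass the test, and ST8SIA5 and B3GALT4 had too few counts to enter it. Of the 8 members tested, 1 was thus higher and 6 lower at an adjusted p of 0.05 (edgeR quasi-likelihood test, adjusted over 18775 genes). In all genes tested, 19.7% were higher and 21.8% lower, or 41.5% in either direction. The median log2 fold change of the 8 members was -0.61, beside -0.003 for all genes tested, and their median absolute value was 0.61, beside 0.37. All 8 had at least 50 counts in every library, so none entered the test through a single group. The groups did not overlap for any of the 8, of which 2 were higher and 6 lower, beside 35% higher, 36.4% lower and 71.4% in either direction among all genes tested. With either shCDK5RAP3 library left out 3 members were lower, and with no filter on low counts also 3.

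**Figure D1:**
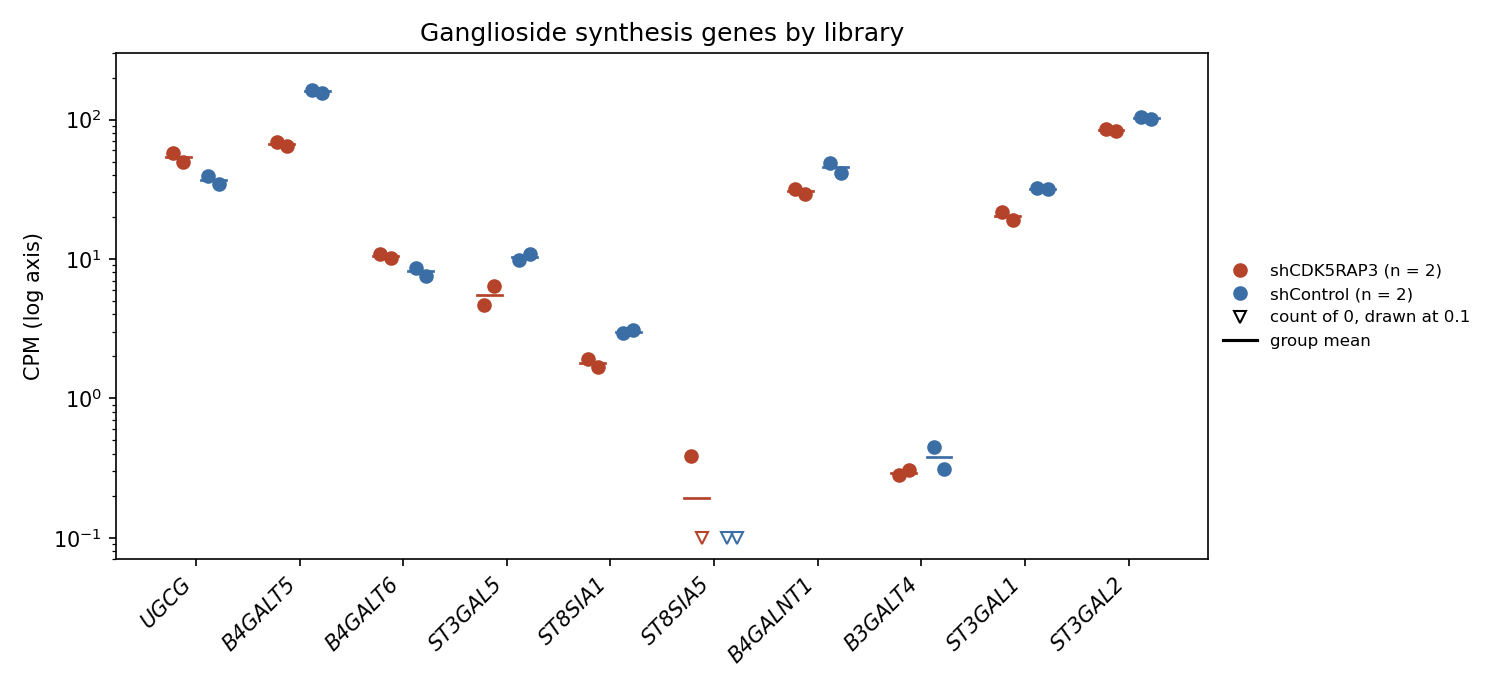
CPM of the 10 genes in each library, on a log axis and in pathway order, with bars at the group means and open triangles for counts of 0. UGCG lies higher in both shCDK5RAP3 libraries (49.3 to 58.0 CPM) than in both shControl libraries (34.3 to 39.1 CPM), B4GALT5 shows the widest gap in the other direction, and ST8SIA5 was counted in a single library.

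**Figure D2:**
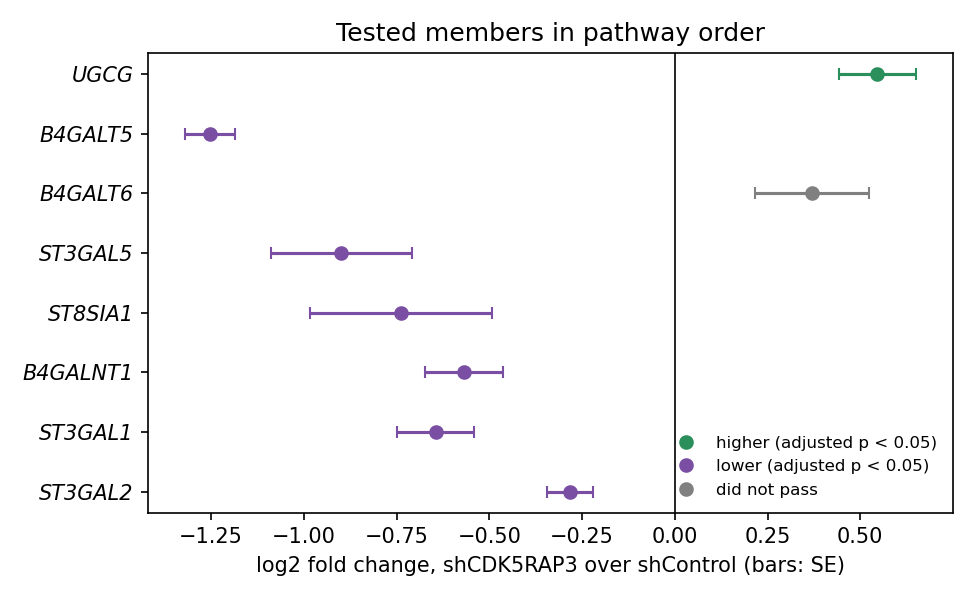
Log2 fold change, shCDK5RAP3 over shControl, of the 8 tested genes in pathway order, with standard errors from the edgeR fit. UGCG (0.55) lies right of 0, as does B4GALT6 (0.37), which did not pass, and the other 6 lie between -1.25 and -0.28.

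UGCG, glucosylceramide synthase, commits ceramide to the glycosphingolipids. Its gene (ENSG00000148154) lies on chromosome 9, from 111896766 to 111935369 on the plus strand of GRCh38. It had 1655 and 1457 counts in shCDK5RAP3 cells, against 1131 and 998 in shControl cells, or 58.0 and 49.3 CPM against 39.1 and 34.3 CPM. Both shCDK5RAP3 libraries were above both shControl libraries. The means were 53.6 ± 6.17 CPM in shCDK5RAP3 cells and 36.7 ± 3.37 CPM in shControl cells (SD, n = 2 each), and the log2 fold change was 0.55 ± 0.10 SE (edgeR adjusted p = 0.00292). The call was lost without shCDK5RAP3 replicate 1, the library with the highest value (log2 fold change 0.43, edgeR adjusted p = 0.0509), and with no filter on low counts (0.0676).

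B4GALT5 and B4GALT6 are paralogs that both make lactosylceramide, and they did not move together. B4GALT5 (ENSG00000158470, chromosome 20, 49632945 to 49713878, minus strand) had 1969 and 1922 counts in shCDK5RAP3 cells, against 4744 and 4510 in shControl cells. The groups were far apart: the mean level was 67.0 ± 2.83 CPM in shCDK5RAP3 cells and 159.6 ± 6.26 CPM in shControl cells (SD, n = 2 each). Its log2 fold change of -1.25 ± 0.07 SE (edgeR adjusted p = 3.49e-06) was the largest in size among the members, and the call held in each alternative that kept the gene, with a log2 fold change from -1.30 to -1.21. B4GALT6 (ENSG00000118276, chromosome 18, 31622247 to 31685836, minus strand) had 309 and 302 counts in shCDK5RAP3 cells, against 251 and 221 in shControl cells. For B4GALT6 both shCDK5RAP3 libraries were the higher ones, but the log2 fold change of 0.37 ± 0.15 SE did not pass (edgeR adjusted p = 0.0843). Nor did it pass under any alternative that kept all 4 libraries (adjusted p from 0.0623 in edgeR with the replicate block to 0.168 with DESeq2). With a library left out, its log2 fold change was 0.274 to 0.464. An antisense gene, AC017100.1, overlaps 107 exon bases of B4GALT6. It had 10 and 23 counts in shCDK5RAP3 cells, against 34 and 32 in shControl cells. No source used here states whether the counting used strand.

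The proportions of these early enzymes were also compared within each library. B4GALT6 made up 13.6% (95% exact binomial interval 12.2 to 15) and 13.6% (12.2 to 15.1) of the counts of the pair in shCDK5RAP3 cells. In shControl cells its share was 5.03% (4.44 to 5.67) and 4.67% (4.09 to 5.31). B4GALT5 had most of the counts of the pair in every library, and the intervals of the groups do not overlap. Scaled to exon length, UGCG stood at 0.860 and 0.776 times the level of B4GALT5 in shCDK5RAP3 cells, against 0.244 and 0.226 times in shControl cells. These intervals cover counting error only, since reads amplified without molecular identifiers are not independent molecules, and neither ratio was tested. Both ratios have B4GALT5 in the denominator, so they restate its fall and the changes of B4GALT6 and UGCG given above.

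**Figure D3:**
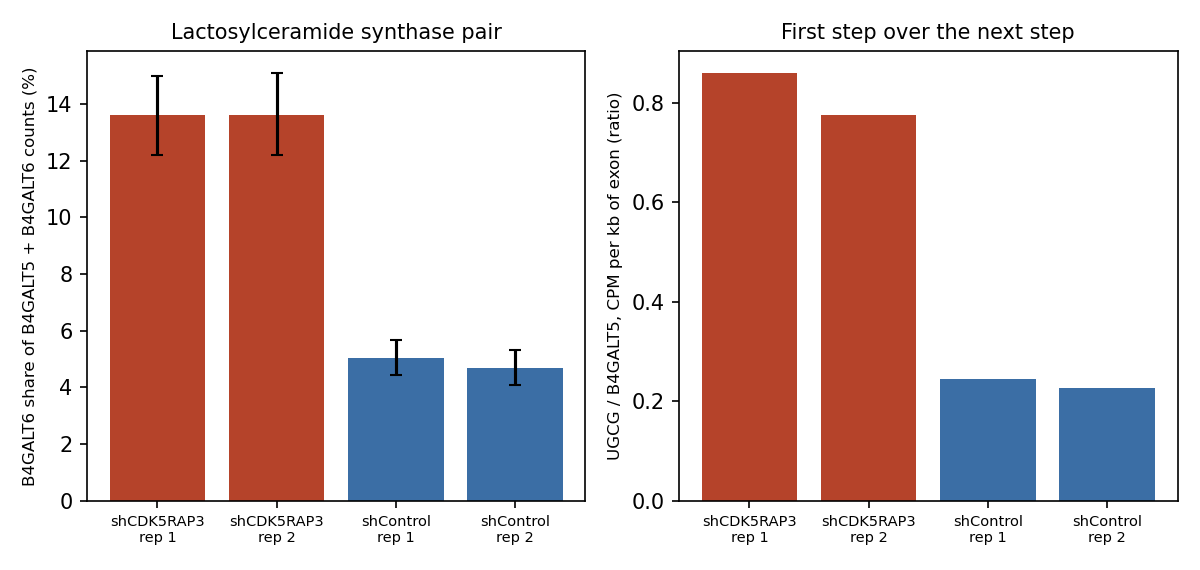
Left, the share of B4GALT6 in the summed counts of B4GALT5 and B4GALT6 in each library, with 95% exact binomial intervals; right, the ratio of UGCG to B4GALT5 in CPM per kilobase of exon. Both bars of shCDK5RAP3 cells are higher than both bars of shControl cells in each panel, at 13.6% against 4.67% to 5.03% and at 0.776 to 0.860 against 0.226 to 0.244.

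ST3GAL5, GM3 synthase, adds the sialic acid that makes a glycolipid a ganglioside. The gene (ENSG00000115525, chromosome 2, 85837120 to 85905199, minus strand) had 134 and 188 counts in shCDK5RAP3 cells, against 283 and 315 in shControl cells. Replicate 1 of shCDK5RAP3 was the lowest library, and the groups did not overlap. The level was 5.52 ± 1.18 CPM in shCDK5RAP3 cells and 10.3 ± 0.745 CPM in shControl cells (SD, n = 2 each; log2 fold change -0.90 ± 0.19 SE, edgeR adjusted p = 0.00491). Without shCDK5RAP3 replicate 1 the log2 fold change was -0.69 and the call was lost (edgeR adjusted p = 0.0545), as it was with no filter on low counts (0.0668).

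ST8SIA1, GD3 synthase, is the branch point enzyme that commits GM3 to the disialo series to which GD2 belongs. It was a weakly expressed transcript here. The gene (ENSG00000111728, chromosome 12, 22063773 to 22437041, minus strand) had 55 and 50 counts in shCDK5RAP3 cells, against 85 and 90 in shControl cells. Both shCDK5RAP3 libraries were below both shControl libraries, at 1.81 ± 0.167 CPM in shCDK5RAP3 cells and 3.02 ± 0.112 CPM in shControl cells (SD, n = 2 each). The log2 fold change was -0.74 ± 0.25 SE and lay near the threshold (edgeR adjusted p = 0.0385). With DESeq2 its adjusted p was 0.158, and with no filter on low counts edgeR gave 0.0702. The call was lost with each library left out in turn: edgeR adjusted p was 0.0868 without shCDK5RAP3 replicate 1, 0.156 without shCDK5RAP3 replicate 2, 0.0726 without shControl replicate 1 and 0.112 without shControl replicate 2. ST8SIA5, which can extend the chain by a further sialic acid (ENSG00000101638, chromosome 18, 46667821 to 46759257, minus strand), had 11 and 0 counts in shCDK5RAP3 cells, against 0 and 0 in shControl cells. An overlapping transcript on the opposite strand, AC090241.2, had 2 and 0 counts in shCDK5RAP3 cells, against 0 and 0 in shControl cells. A count of 0 allows up to 3 counts in a library, or 0.101 to 0.105 CPM, so expression of ST8SIA5 was not detectable in 3 of the 4 libraries at this depth.

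B4GALNT1, GM2/GD2 synthase, completes GD2. The gene (ENSG00000135454, chromosome 12, 57623410 to 57633355, minus strand) had 911 and 862 counts in shCDK5RAP3 cells, against 1420 and 1206 in shControl cells. All values of shCDK5RAP3 cells were lower, with 30.5 ± 1.96 CPM in shCDK5RAP3 cells and 45.3 ± 5.38 CPM in shControl cells (SD, n = 2 each; log2 fold change -0.57 ± 0.11 SE, edgeR adjusted p = 0.00234). The call was lost without shCDK5RAP3 replicate 2 (edgeR adjusted p = 0.07) and with no filter on low counts (0.0523). SLC26A10 on the opposite strand shares 2136 exon bases with B4GALNT1, so reads there cannot be told apart without strand. SLC26A10 had 68 and 50 counts in shCDK5RAP3 cells, against 64 and 72 in shControl cells.

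The enzymes beyond GD2 differed in level. B3GALT4, which makes GM1 and GD1b (ENSG00000235863, chromosome 6, 33277132 to 33284832, plus strand), had 8 and 9 counts in shCDK5RAP3 cells, against 13 and 9 in shControl cells, too few to be tested. ST3GAL1 (ENSG00000008513, chromosome 8, 133454848 to 133571940, minus strand), which also sialylates O-linked glycans of proteins, had 622 and 564 counts in shCDK5RAP3 cells, against 935 and 917 in shControl cells. The groups were well apart, at 20.4 ± 1.93 CPM in shCDK5RAP3 cells and 31.9 ± 0.55 CPM in shControl cells (SD, n = 2 each; log2 fold change -0.65 ± 0.10 SE, edgeR adjusted p = 0.00109). This call held in every alternative that was run. ST3GAL2 (ENSG00000157350, chromosome 16, 70375978 to 70439237, minus strand), the paralog with the larger part in ganglioside sialylation in mouse brain, had 2423 and 2465 counts in shCDK5RAP3 cells, against 2993 and 2941 in shControl cells. Its fall was the smallest of those called, to 84.1 ± 1.09 CPM in shCDK5RAP3 cells, against 102 ± 1.62 CPM in shControl cells (SD, n = 2 each; log2 fold change -0.28 ± 0.06 SE, edgeR adjusted p = 0.00599). The call was lost without shCDK5RAP3 replicate 1 (edgeR adjusted p = 0.0714) and without shCDK5RAP3 replicate 2 (0.0913). ST3GAL1 made up 20.4% (95% exact binomial interval 19.0 to 21.9) and 18.6% (17.2 to 20.1) of the counts of the pair in shCDK5RAP3 cells, against 23.8% (22.5 to 25.2) and 23.8% (22.4 to 25.1) in shControl cells.

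Levels per kilobase of annotated exon show which steps were represented by much RNA and which by little. In shCDK5RAP3 cells the order was B4GALT5 (14.2 CPM per kilobase), UGCG (11.6), ST3GAL2 (8.63), B4GALNT1 (3.81), ST3GAL1 (2.31), B4GALT6 (1.98), ST3GAL5 (0.339), ST8SIA1 (0.125), B3GALT4 (0.124) and ST8SIA5 (0.0122). ST8SIA1 and B3GALT4 overlapped between libraries, and no other neighbours did. In shControl cells the order was B4GALT5 (33.8 CPM per kilobase), ST3GAL2 (10.5), UGCG (7.96), B4GALNT1 (5.66), ST3GAL1 (3.61), B4GALT6 (1.53), ST3GAL5 (0.632), ST8SIA1 (0.208) and B3GALT4 (0.161), with no overlap between neighbours and ST8SIA5 at 0. The sialyltransferases that open the GM3 and GD3 steps were thus the least abundant of the called members in both groups. UGCG and ST3GAL2 changed places between the groups. With the longest coding transcript as the length, B4GALNT1 stood above ST3GAL2 in both groups and above UGCG in shControl cells. ST3GAL5 and B4GALT6 overlapped between the shControl libraries on that length (2.21 and 2.45 CPM per kilobase for ST3GAL5, 2.23 and 1.95 for B4GALT6).

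The 3′ untranslated regions (3′ UTRs) of some members hold a short sequence word that was set against the fold changes of all genes. Earlier work on the same data picked the 7-base words AACACCT and ACACCTA in 3′ UTRs, so their link to lower expression is not independent here. Among tested protein-coding genes, the 11485 with neither word in their longest annotated 3′ UTR had a median log2 fold change of 0.01, and 23.6% were lower. The 2076 genes with at least 1 of the words had a median of -0.24, and 42.6% were lower, but their 3′ UTRs were also longer (median 3084.5 bases, against 1173 bases). Among the 8 tested members, B4GALT5, B4GALNT1 and ST3GAL2 hold such a word, and all of these were lower. The other lower members, ST3GAL5, ST8SIA1 and ST3GAL1, hold neither, as do UGCG and B4GALT6. ST8SIA5 holds AACACCT at 3 places in its annotated 3′ UTR. The part of these words in the results was not tested. The sites of the 3 tested members are shown because they are what these transcripts share and the other tested members lack, 5′ to 3′ on the transcript, with the words in capitals and their flanks in lower case (GENCODE 29, GRCh38, all on the minus strand). They lie at chr20:49633671-49633697 for B4GALT5, chr12:57626153-57626180 for B4GALNT1, where both words overlap, and chr16:70376421-70376447 for ST3GAL2. The word ends 736 bases before the end of the 3′ UTR in B4GALT5, 268 bases in B4GALNT1 and 453 bases in ST3GAL2.
B4GALT5: gcaaaaggctAACACCTgactttagaa
B4GALNT1: tccctgtgcaAACACCTAgactcacttc
ST3GAL2: gtgtggaattAACACCTttcctctagc

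Promoter sequences were found for 4 of the 10 members, UGCG, B4GALT5, ST3GAL5 and ST8SIA1. Those of UGCG, which rose, and of B4GALT5 and ST8SIA1, which fell, are shown so that members that moved in different directions can be set side by side. Each window runs from 250 bases before to 50 bases after a RefSeq transcript start (GRCh38.p14), at chr9:111896564-111896863 on the plus strand for UGCG, chr20:49713829-49714128 on the minus strand for B4GALT5 and chr12:22334658-22334957 on the minus strand for ST8SIA1. Capitals mark matches on either strand to GGGCGG (the GC box of SP and KLF factors), CCAAT (the box of NF-Y) and CANNTG (the E-box of basic helix-loop-helix factors). None of the marked matches overlap. GGGCGG occurred 3 times in the UGCG window, 3 times in that of B4GALT5 and 1 time in that of ST8SIA1, and 45% of all 35116 promoter windows hold it. CANNTG occurred 3 times in B4GALT5 and 0 times in UGCG and ST8SIA1, and 68.7% of all windows hold it. CCAAT occurred only in ST8SIA1 among these 3 windows, 1 time, and 34.6% of all windows hold it. CACGTG, the E-box form that MYC family factors bind, was in none of the 3 windows and is in 7.26% of all. Of the windows at the 5 RefSeq start sites of ST3GAL5, 2 overlapping ones share a match to TGACGTCA, a cyclic AMP response element, and 1.85% of all windows hold it. These matches describe letters and do not show that a factor binds.
UGCG: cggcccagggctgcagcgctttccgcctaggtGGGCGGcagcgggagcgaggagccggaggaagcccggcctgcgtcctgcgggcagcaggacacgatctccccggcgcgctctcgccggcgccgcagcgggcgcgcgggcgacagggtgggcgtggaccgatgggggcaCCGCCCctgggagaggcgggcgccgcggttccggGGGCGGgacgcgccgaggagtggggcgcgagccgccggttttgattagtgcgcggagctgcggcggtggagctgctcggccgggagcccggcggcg
B4GALT5: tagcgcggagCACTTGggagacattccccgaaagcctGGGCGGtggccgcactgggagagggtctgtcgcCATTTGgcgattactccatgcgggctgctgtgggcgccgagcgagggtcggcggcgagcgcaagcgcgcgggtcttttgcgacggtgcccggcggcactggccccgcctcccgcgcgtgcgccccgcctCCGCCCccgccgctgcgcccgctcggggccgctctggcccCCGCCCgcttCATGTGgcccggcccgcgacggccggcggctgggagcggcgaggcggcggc
ST8SIA1: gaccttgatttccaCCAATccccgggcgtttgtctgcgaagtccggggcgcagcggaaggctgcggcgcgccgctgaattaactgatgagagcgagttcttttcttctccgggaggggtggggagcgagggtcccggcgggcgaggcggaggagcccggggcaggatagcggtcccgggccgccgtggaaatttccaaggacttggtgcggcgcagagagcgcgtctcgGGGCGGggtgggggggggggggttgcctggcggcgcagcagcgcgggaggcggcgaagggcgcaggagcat

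The ceramide that feeds the chain is made by a set of enzymes in the endoplasmic reticulum. Of 15 tested ceramide synthesis genes 3 rose, 4 fell and 8 did not pass (median log2 fold change -0.09, beside -0.003 for all genes tested). These shares lie near those of all genes tested, of which 19.7% were higher and 21.8% lower, and the counts of the lists that follow are set against the same background. SPTLC1, a subunit of the serine palmitoyltransferase that starts sphingolipid synthesis, rose by 0.44 on the log2 scale, and ORMDL3, an inhibitor of that enzyme, by 0.38. The ceramide synthases CERS4 (log2 fold change -1.95) and CERS1 (-1.15) fell. CERS4 was low in every library, with 15 and 36 counts in shCDK5RAP3 cells, against 91 and 105 in shControl cells. CERS1 shares its transcription unit with GDF1, so its value is uncertain. Without shCDK5RAP3 replicate 1 and without shCDK5RAP3 replicate 2, CERS1 (edgeR adjusted p = 0.0523 and 0.0741) and ORMDL3 (0.0678 and 0.0524) lost their calls. With no filter on low counts CERS1 (0.0757) and CERS4 (0.0707) did.

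Sugar donors are the other input of the chain. Of 15 tested genes of sialic acid and sugar nucleotide supply 7 rose, 3 fell and 5 did not pass (median log2 fold change 0.12). NANP (0.61), the phosphatase that releases free sialic acid, and SLC35A2 (0.59), the Golgi transporter of UDP-galactose, had the largest rises. GALK1 (-0.69), a galactokinase, and CMAS (-0.39), which activates sialic acid to its CMP form, fell. CMAS lies on the opposite strand from ST8SIA1 and overlaps its annotated span without sharing exon bases. Without shCDK5RAP3 replicate 1 the calls of CMAS (edgeR adjusted p = 0.058) and GALK1 (0.059) were lost, and without shCDK5RAP3 replicate 2 those of CMAS (0.0751), GALK1 (0.0673) and NANP (0.089). With no filter on low counts, NANP (0.0885) and GALK1 (0.0669) were lost too.

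The enzymes and cofactors that take gangliosides apart act mainly in the lysosome. Among 13 of these genes in the test, 1 rose, 5 fell and 7 did not pass (median log2 fold change -0.27). GM2A, the activator that lifts GM2 out of the membrane for hydrolysis, fell to 28.7% of its control level, with 7.95 and 8.62 CPM in shCDK5RAP3 cells, against 29.5 and 28.3 CPM in shControl cells (log2 fold change -1.80 ± 0.12 SE, edgeR adjusted p = 7.9e-06). NEU4, a sialidase, fell by 1.61 on the log2 scale from few counts, and CTSA, the protective protein of lysosomal sialidase, rose by 0.51. HEXA, a lysosomal enzyme of GM2 breakdown that was named after its values were seen, fell by 0.66 on the log2 scale. NEU4 did not pass without shCDK5RAP3 replicate 2 (edgeR adjusted p = 0.095), without shControl replicate 2 (0.0679) and with no filter on low counts (0.0672).

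Among the 14 other sialyltransferases tested 2 rose, 5 fell and 7 did not pass (median log2 fold change -0.36). ST8SIA4, which makes polysialic acid chains, fell to 40.0% of control (-1.32) and ST3GAL3 to 45.9% (-1.12). ST8SIA2, the other polysialyltransferase, rose by 0.26 and ST6GAL2 by 0.45. These rises were near the threshold (edgeR adjusted p = 0.0452 for ST8SIA2 and 0.0379 for ST6GAL2). Scaled by library size alone they did not pass (0.0704 and 0.0519), nor with no filter on low counts (0.237 and 0.115). ST8SIA2 did not pass without shCDK5RAP3 replicate 1 (0.278), shCDK5RAP3 replicate 2 (0.148) or shControl replicate 2 (0.216), where its log2 fold change was 0.14. ST6GAL2 did not pass with any library left out (0.0673 to 0.224) or with DESeq2 (0.0636). Of the 5 tested genes of other glycosphingolipid branches 0 rose with edgeR (0 at an unadjusted p under 0.05, 0 with DESeq2 and 0 with limma-trend) and 1 fell. That gene was B3GALNT1, globoside synthase (-0.35), whose call was lost without shCDK5RAP3 replicate 1 (edgeR adjusted p = 0.054) and without shCDK5RAP3 replicate 2 (0.0663).

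Of 8 genes of lipid transfer, Golgi retention and sialic acid O-acetylation 3 rose, 2 fell and 3 did not pass (median log2 fold change 0.07). PLEKHA8 (FAPP2), which carries glucosylceramide to the Golgi site where lactosylceramide is made, rose 1.86-fold. It had 116 and 114 CPM in shCDK5RAP3 cells, against 65.7 and 58.5 CPM in shControl cells (log2 fold change 0.89 ± 0.07 SE, edgeR adjusted p = 3.14e-05), and a processed copy, PLEKHA8P1, makes its value uncertain. The ceramide-1-phosphate transfer protein gene CPTP rose by 0.69. GOLPH3L, a paralog of the Golgi retention factor GOLPH3, fell to 30.9% of control, with 6.31 and 6.22 CPM in shCDK5RAP3 cells, against 19.1 and 21.5 CPM in shControl cells (log2 fold change -1.69 ± 0.14 SE, edgeR adjusted p = 2.69e-05). Its 3′ UTR holds AACACCT. Other genes of the pathway lists hold AACACCT or ACACCTA too, and some of these fell while others did not pass. SIAE, a sialic acid O-acetylesterase, fell by 0.79 on the log2 scale. Without shCDK5RAP3 replicate 2 CPTP did not pass (edgeR adjusted p = 0.0574), nor did SIAE without shCDK5RAP3 replicate 1 (0.0563) and with no filter on low counts (0.0656).

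**Figure D4:**
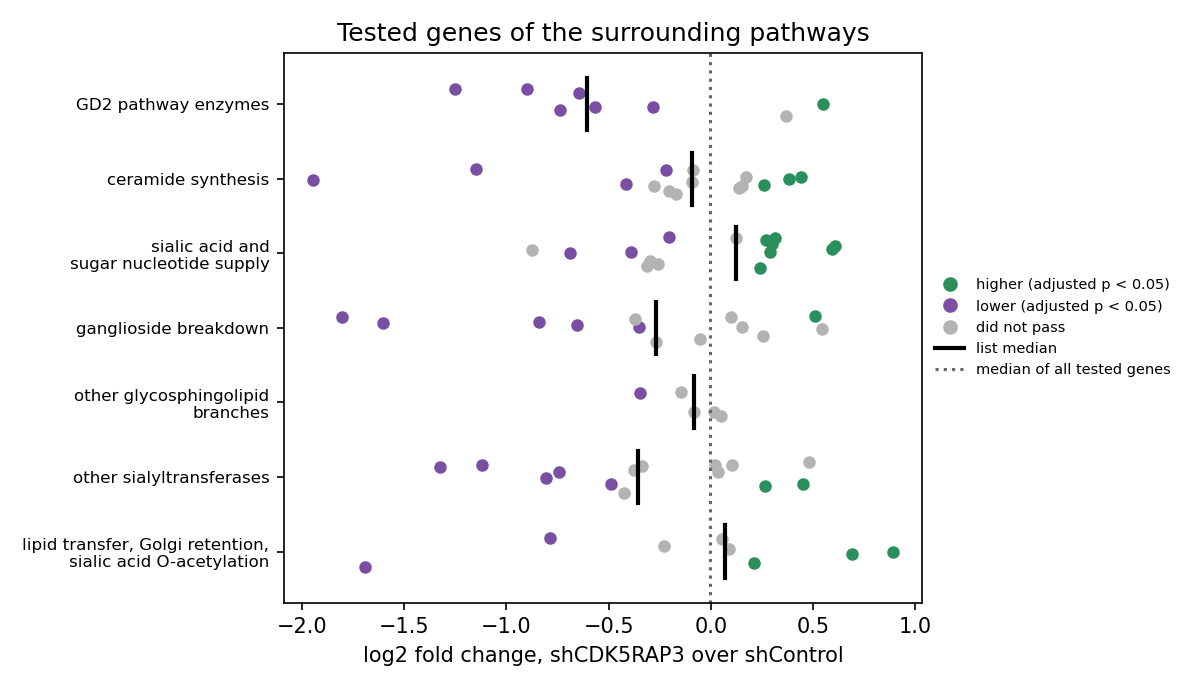
Log2 fold change, shCDK5RAP3 over shControl, of each tested gene in 7 lists, with a bar at the median of each list and a dotted line at the median of all genes tested. The GD2 pathway enzymes have a median of -0.61, and the other lists drawn have medians from -0.36 to 0.12. The marker lists are not drawn. Their medians are -0.62 for the noradrenergic neuroblastoma markers and -1.23 for the markers of other cell types.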

How the data were processed

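RNA sequencing counts of 4 SK-N-BE(2) libraries, 2 shCDK5RAP3 and 2 shControl, were analysed, grouped by the sample titles. Per the labels' protocols, RNA was extracted with TRIzol and libraries were made with a TruSeq kit. The authors deposited whole-number counts per Ensembl gene, not scaled between libraries. HISAT2 2.2.0, StringTie and hg38 are named in the submitters' processing notes, without roles. No source used here gives the annotation release, the strand setting, the handling of multi-mapped reads or the hairpin sequences.

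Identifiers were matched to GENCODE 29 and a gene name table (56591 matched, 7661 not). Where several rows carried a symbol, the row with the highest mean count was used. The test was edgeR 4.0.16 (R 4.3.3) with TMM factors, the default filter by group (18775 genes kept), the quasi-likelihood fit, and Benjamini-Hochberg adjustment over all tested genes at 0.05. Fold changes are given as log2 of shCDK5RAP3 over shControl, each with a standard error taken from its F statistic (absolute log2 fold change over the root of F), and CPM uses TMM-scaled library sizes. A library's floor was 3 counts, for counting error only. Libraries of a group differed by more than counting noise (chi-square per degree of freedom 7.9 for shCDK5RAP3 and 10.3 for shControl, against 98.2 to 112 between groups).

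Named genes were CDK5RAP3, the members, and up to 2 called genes per direction with the largest change in each pathway list; HEXA was added after its values were seen. The members and lists, and the 3′ UTR words, were chosen with earlier results of these data known. Alternatives were other scaling factors, filters, DESeq2 1.42.0, a robust fit, limma-trend (limma 3.58.1), rows summed by symbol, the replicate number as a block, a stricter adjusted p of 0.01, and omission of every library in turn. Removal of genes with the 3′ UTR words was added after seeing the data. With a library left out, the lone library of its group is assumed to vary like the other group. The code was tested on simulated data.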

Additional observations from a re-analysis of the deposited data

How the results depend on the processing

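No member changed direction under any alternative that gave it a value, and under other scaling factors, the stricter filter, the robust fit, limma-trend and rows summed by symbol 1 member was higher and 6 lower, as reported. With no filter on low counts 4488 of all genes passed, against 7792 as reported, with 0 members higher (edgeR; 2 at an unadjusted p under 0.05) and 3 lower; the cause was not tested. DESeq2, a separate alternative with its own filtering, called 1 member higher. With each library left out in turn, 3752 to 7329 of all genes passed, 0 to 1 members were higher and 3 to 5 lower, fewer samples being part of each such fit. The 0 came without shCDK5RAP3 replicate 1 (edgeR; 1 at an unadjusted p under 0.05). With genes that hold AACACCT or ACACCTA in the 3′ UTR left out, 3 members were lower, since 3 of the lower members are among the genes removed. With the replicate number as a block 9148 genes passed, and members stayed at 1 higher and 6 lower; deviations of same-numbered libraries correlated at 0.146, and nothing in the labels says that a number marks a shared culture. DESeq2 and a threshold of 0.01 each called 5 members lower, without ST8SIA1. ST8SIA5 and B3GALT4, with at most 13 counts in a library, were too low for the filter. ST8SIA1 was the called member that lost its call under the most alternatives; the cause was not tested.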
